A study of Homo sapiens with 12 samples.

Results

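PRSS35, ZMAT1, PECAM1 and PTPRG-AS1 are 4 of the 60641 gene symbols counted in SRA01/04 cells, an immortalised human lens epithelial line. They were picked by name from earlier results of these counts, for large changes with asparagine in the absence or presence of 1,2-DHN (1,2-dihydroxynaphthalene, formed in the body from naphthalene and readily oxidised to its quinone). The cells were given neither compound (NC), asparagine (NC-A), 1,2-DHN (DHN) or both (DHN-A), and RNA was sequenced after 24 hours in 3 libraries per group. All groups are the same line, without a genetic change named in the labels. No source used here gives the doses, the order of addition or says that a group's libraries are separate cultures. A p-value here therefore reflects the spread among these libraries alone, which may be technical. Because the members were chosen on the comparisons NC-A against NC and DHN-A against DHN, their values there are a description without a test, and so is the interaction, the difference between those 2 changes. The effect of 1,2-DHN was tested without asparagine (DHN against NC) and with it (DHN-A against NC-A), although both comparisons reuse libraries on which the genes were picked. Picking on NC libraries can by itself shift DHN against NC toward the sign of the change in NC-A against NC. Picking on NC-A libraries can likewise shift DHN-A against NC-A toward the opposite sign. The adjusted p-values of the members do not allow for either shift.

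The 4 genes belong to different families. PRSS35 encodes a secreted protein with the fold of a trypsin-like serine protease that is regarded as an inactive member of that family. ZMAT1 encodes a protein with zinc fingers of the matrin type, a fold known for binding double-stranded RNA in related proteins. PECAM1 (CD31) is an adhesion molecule of the immunoglobulin superfamily, best known from the junctions of endothelial cells and from platelets and leukocytes; its cytoplasmic tyrosine motifs recruit phosphatases. PTPRG-AS1 is a long non-coding RNA transcribed opposite the 3′ part of PTPRG, a receptor-type tyrosine phosphatase. Asparagine is a non-essential amino acid that cells make with asparagine synthetase, a target of the transcription factor ATF4.

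Total counts ran from 12381071 to 27526206 per library. NC-A 1 stood apart, at 65.1 on the main axis of variation (33.9% of the variance), where NC-A 2 lay at 12.5 and NC-A 3 at 10.4; the members' values in comparisons with NC-A are given with and without it. Without it the list and neighbour counts in NC-A against NC below moved by at most 2 genes, with 1 exception. The antisense genes called higher went from 57 to 42. Of 18527 genes tested without NC-A 1, 7.17% were higher and 8.93% lower. No pair of libraries of a group looked like a repeat deposit, since their mean chi-square per gene was 1.77 to 4.34. Of 20 lens markers 8 had enough counts to be tested, led by the eye transcription factor PAX6 with a mean of 25.9 CPM (counts scaled to the library's size). The lens genes were mixed: CRYAA, MIP and LIM2 had at most 3 counts in any library, whereas CRYGS had 25 to 76, BFSP1 46 to 158 and GJA3 16 to 59. All 4 members passed the filter on low counts, among 17889 tested genes. Their levels were low: per kilobase of gene length the means over all libraries were 1.36 RPKM for PRSS35, 0.666 for ZMAT1, 0.383 for PECAM1 and 0.292 for PTPRG-AS1. The median tested gene was at 3.23 RPKM, and the members lay at the 35.1, 24.0, 16.3 and 12.8 percentiles of the tested genes.

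**Figure D1:**
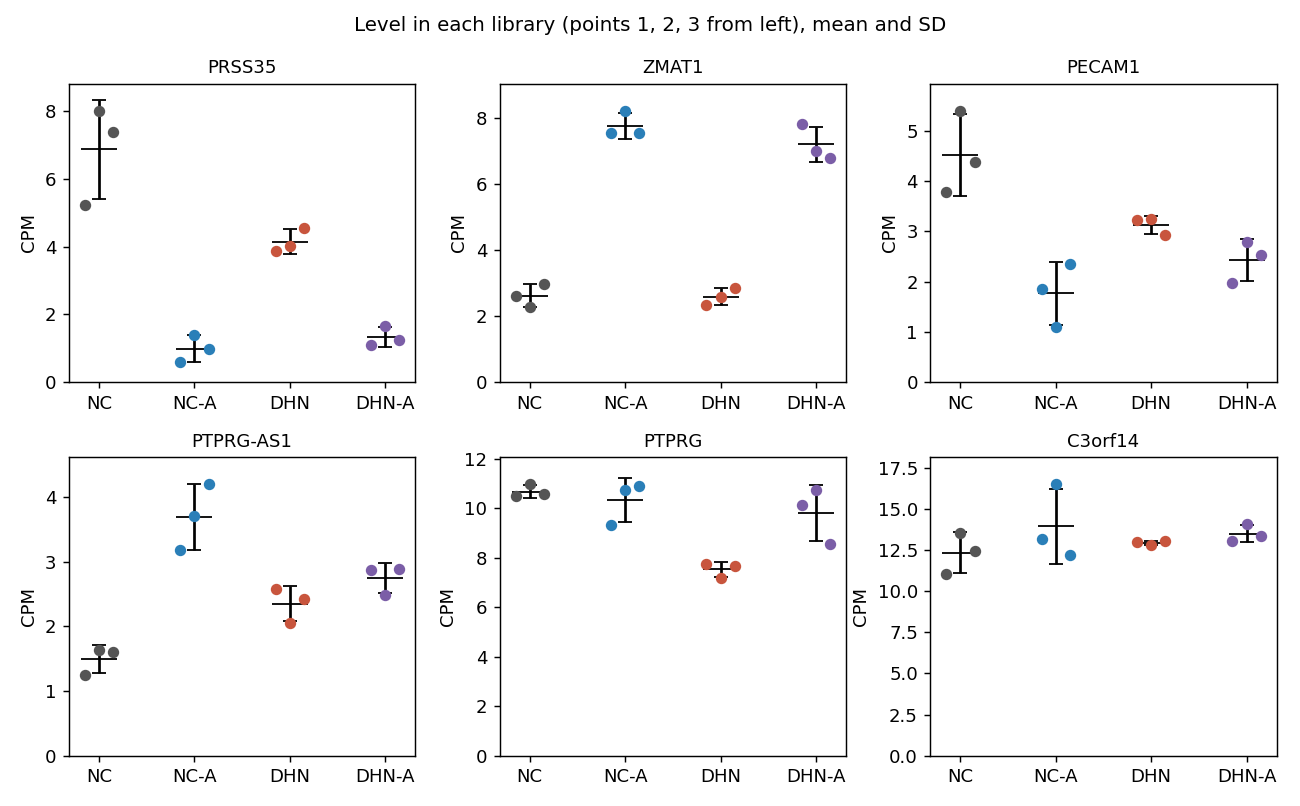
Level in CPM (vertical axes, from 0) of the 4 genes and of the 2 genes that overlap PTPRG-AS1, in the groups NC, NC-A, DHN and DHN-A; points are libraries 1, 2 and 3 from left to right, and bars are the mean ± SD. PRSS35 and PECAM1 were lowest in NC-A, where ZMAT1 and PTPRG-AS1 were highest, while C3orf14 stayed between 11.1 and 16.5 CPM in all libraries.

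PRSS35 had the largest change of the 4 with asparagine and was lower in all 3 groups that received a compound. The gene (ENSG00000146250) lies on chromosome 6 from 83512538 to 83525704 on the plus strand (GRCh38, GENCODE release 29), with 2 exons in 1 annotated transcript. Its level was 5.22, 8.01 and 7.39 CPM in NC 1, 2 and 3, from 84, 166 and 175 counts. With asparagine alone it was 0.591, 1.38 and 0.976 CPM, from 8, 19 and 17 counts. Every NC library was above every NC-A library, and the group means were 6.88 ± 1.47 and 0.983 ± 0.395 CPM (mean ± SD, n = 3). On the log2 scale the change was -2.81 ± 0.25, where the error of a log2 value is its SE here and below; this is 6.99-fold lower and the fall of rank 7 among the 17889 tested genes. Without NC-A 1 the log2 change was -2.58. At so few counts the counting error alone gives a coefficient of variation of 28.1% in NC-A, where 40.2% was measured.

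With 1,2-DHN present the same gene was again lower with asparagine, by less. DHN libraries 1, 2 and 3 held 3.87, 4.00 and 4.55 CPM of PRSS35, and the DHN-A libraries held 1.08, 1.64 and 1.24 CPM. The groups did not overlap, and the log2 change was -1.65 ± 0.23, or 3.15-fold lower. The difference between the changes in the presence and absence of 1,2-DHN was 1.15 ± 0.35 on the log2 scale, and 0.92 without NC-A 1. In bulk RNA, fewer cells that express a gene and less of its RNA per cell cannot be told apart, here and for every gene below.

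PRSS35 was lower in DHN than in NC. The mean of 6.88 ± 1.47 CPM in NC compared with 4.14 ± 0.363 in DHN (SD, n = 3), with a log2 change of -0.73 ± 0.20 (edgeR adjusted p = 0.00205, 0.000161 to 0.0290 over 18 alternatives), and all 3 DHN libraries were below all 3 NC libraries. In the presence of asparagine no change with 1,2-DHN was detected (log2 change 0.42 ± 0.29, edgeR adjusted p = 0.602; 0.19 and 0.890 without NC-A 1), and the NC-A and DHN-A libraries overlapped. The order of the group means was NC, DHN, DHN-A and NC-A, at 100%, 60.2%, 19.2% and 14.3% of the NC mean; DHN-A and NC-A are the neighbours in that order whose libraries overlapped.

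Of 42 other trypsin-fold proteases 18 were tested. With asparagine alone 2 rose and 4 fell, where 9.32% of all tested genes rose and 10.9% fell, and the median log2 change was 0.15 against 0.0031 for all genes. In DHN-A against DHN 6 rose and 3 fell (20.9% and 20.8% of all genes), with a median of 0.20, and in DHN against NC 1 rose and 7 fell (19.7% and 19.0%), with a median of -0.20. PLAT, the tissue plasminogen activator, rose by 0.22 ± 0.044 without and 0.93 ± 0.046 with 1,2-DHN (edgeR adjusted p = 0.000155 and 1.53e-21), and PLAU, urokinase, by 0.27 ± 0.036 and 0.89 ± 0.037 (1.47e-07 and 1.36e-24). HTRA1, a secreted protease of the matrix, fell by 0.28 ± 0.043 in NC-A against NC and rose by 0.52 ± 0.043 in DHN-A against DHN (edgeR adjusted p = 2.03e-06 and 5.82e-14). C1R, a complement protease, was at 0.18 ± 0.11 and 0.72 ± 0.11 (edgeR adjusted p = 0.285 and 8.11e-07). Of 24 serine protease inhibitors 17 were tested, with 4 higher and 2 lower in NC-A against NC and 8 higher and 3 lower in DHN-A against DHN; the shares of all genes are those just given. SERPINI1, neuroserpin, rose in both, by 0.86 ± 0.21 and 0.59 ± 0.19 (edgeR adjusted p = 0.00164 and 0.0108), whereas SERPINH1, the collagen chaperone HSP47, rose by 0.23 ± 0.046 and fell by 0.88 ± 0.043 (0.000164 and 9.89e-22). SERPING1 and SPINT2, a complement and a membrane protease inhibitor, rose with asparagine in 1,2-DHN-treated cells, by 0.90 ± 0.17 and 0.70 ± 0.16 (edgeR adjusted p = 1.65e-05 and 0.000326).

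**Figure D2:**
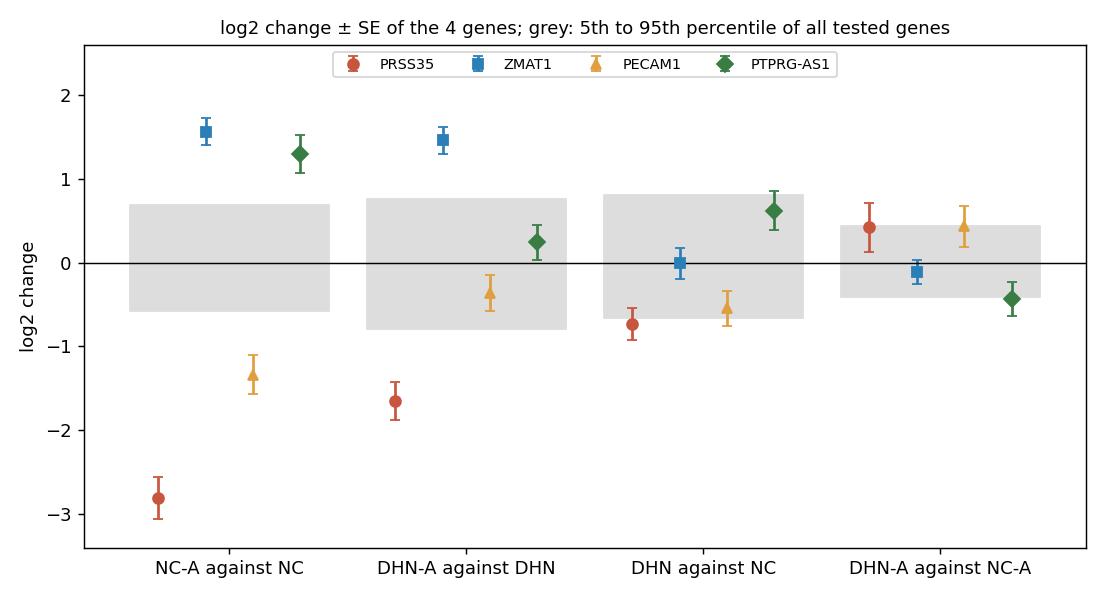
log2 change ± SE (vertical axis) of the 4 genes in 4 comparisons, with the 5th to 95th percentile of all 17889 tested genes in grey. All 4 genes lay outside the grey range in NC-A against NC, 2 (PRSS35 and ZMAT1) in DHN-A against DHN, PRSS35 in DHN against NC and PTPRG-AS1 in DHN-A against NC-A; the 2 asparagine comparisons are those the genes were picked on.

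ZMAT1 was higher with asparagine by a similar amount with and without 1,2-DHN, and no change with 1,2-DHN was detected. The gene (ENSG00000166432) lies on chromosome X from 101882288 to 101932031 on the minus strand, with 6 annotated transcripts. NC libraries 1, 2 and 3 were at 2.61, 2.27 and 2.96 CPM and NC-A libraries at 7.54, 8.21 and 7.52 CPM. DHN libraries were at 2.34, 2.57 and 2.83 CPM and DHN-A libraries at 7.80, 6.99 and 6.78 CPM. All 6 libraries with asparagine were above all 6 without it. The log2 change was 1.56 ± 0.16 in NC-A against NC (2.95-fold, 1.58 without NC-A 1) and 1.46 ± 0.16 in DHN-A against DHN (2.75-fold), and the difference between them was -0.10 ± 0.23 (-0.12 without NC-A 1).

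ZMAT1 varied between libraries by no more than about what counting gives. Its coefficient of variation was 13.2%, 5.06%, 9.64% and 7.49% in the 4 groups (NC, NC-A, DHN, DHN-A), where counting error alone gives 14.1%, 9.36%, 15.2% and 7.34%. The group means were 2.61 ± 0.344, 7.76 ± 0.393, 2.58 ± 0.249 and 7.19 ± 0.539 CPM in that order of groups (SD, n = 3). 1,2-DHN gave a log2 change of -0.0068 ± 0.18 without asparagine (edgeR adjusted p = 0.984) and -0.11 ± 0.14 with it (edgeR adjusted p = 0.848; -0.12 and 0.842 without NC-A 1). The sign of that small value turned under 4 alternatives. From high to low the means ran NC-A, DHN-A, NC and DHN; libraries overlapped between NC-A and DHN-A and between NC and DHN, so only the step between the pairs was larger than the spread.

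Stretches of 2 promoters are shown because they belong to the members that were higher with asparagine and hold letters known from stress-responsive promoters. RefSeq's promoter table (GRCh38.p14), which covers 250 bases before to 50 after each start, matched 3 of the 4 genes; PECAM1 was not matched. The motifs were chosen after the sequences had been seen: TGACGTCA (the cyclic AMP response element), TGANGNAA (an ATF and C/EBP composite), GAANNTTC (heat shock element pair), TGACNNNGC (antioxidant response element core), CACGTG (E-box) and GCGTG (xenobiotic response element core), each on both strands. In the lines below, 5′ to 3′ along the strand of the gene, capitals mark the match to TGANGNAA in ZMAT1 and to TGACGTCA in PTPRG-AS1. The ZMAT1 stretch is chrX:101932028-101932277, all 250 bases before the start, and the PTPRG-AS1 stretch is chr3:62318898-62318972, the 75 bases from the start of C3orf14 on the other strand to the end of the window.
ZMAT1: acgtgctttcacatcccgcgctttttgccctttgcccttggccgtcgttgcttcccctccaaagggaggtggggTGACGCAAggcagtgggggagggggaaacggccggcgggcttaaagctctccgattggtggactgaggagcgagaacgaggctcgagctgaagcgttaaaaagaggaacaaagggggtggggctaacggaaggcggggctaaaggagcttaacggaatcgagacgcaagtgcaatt
PTPRG-AS1: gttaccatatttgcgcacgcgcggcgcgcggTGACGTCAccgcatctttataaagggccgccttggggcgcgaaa
The ZMAT1 match TGACGCAA lies 176 bases before the start, and 14.7% of the 35116 promoters in the table hold TGANGNAA. The PTPRG-AS1 match TGACGTCA begins at base 7 after the start, and 1.85% of the promoters hold it. The same match lies shortly before the start of C3orf14 on the other strand, a gene without a detected change (below). TGACNNNGC was also found in both windows outside the stretches shown or after the start, and is held by 13.3% of promoters. The PTPRG-AS1 window further holds GAANNTTC (6.77% of promoters) and GCGTG (36.5%), the latter at 2 places of which 1 overlaps the TGACNNNGC match. None of the motifs was in the PRSS35 window. A match describes letters and not bound sites.

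Of 16 matrin-type and related zinc finger genes 13 were tested. With asparagine alone 3 rose and 1 fell, and in DHN-A against DHN 2 rose and 4 fell, with median log2 changes of 0.079 and -0.033. These 4 and 6 of 13 stand beside 20.2% and 41.7% of all genes. Of the ZMAT genes, ZMAT2, a spliceosome component, was at 0.079 ± 0.057 (edgeR adjusted p = 0.375) and fell by 0.33 ± 0.055 (1.58e-05) in these comparisons. ZMAT5, of the minor spliceosome, was at -0.040 ± 0.12 (edgeR adjusted p = 0.863) and fell by 0.31 ± 0.11 (0.0180). ZNF385A, an RNA-binding zinc finger protein, fell in both, by 0.42 ± 0.11 and 0.39 ± 0.11 (edgeR adjusted p = 0.00690 and 0.00284). ZNF385B was at 0.095 ± 0.21 (edgeR adjusted p = 0.807) and rose by 0.67 ± 0.21 (0.00828).

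PECAM1 was lower with asparagine when 1,2-DHN was absent, and by less when it was present. The gene (ENSG00000261371) lies on chromosome 17 from 64319415 to 64413776 on the minus strand, with 9 annotated transcripts. Its level was 3.79, 5.41 and 4.39 CPM in NC 1, 2 and 3 and 1.85, 1.09 and 2.35 CPM in NC-A 1, 2 and 3. All NC libraries were above all NC-A libraries, of which NC-A 2 rested on 15 counts. The means were 4.53 ± 0.817 and 1.76 ± 0.637 CPM (SD, n = 3), and on the log2 scale the change was -1.34 ± 0.23 (2.53-fold lower; -1.36 without NC-A 1). DHN libraries 1, 2 and 3 held 3.22, 3.24 and 2.93 CPM and DHN-A libraries 1.98, 2.79 and 2.52 CPM. These groups did not overlap either, but the log2 change was -0.36 ± 0.22, the fall of rank 3028 among tested genes. The difference between the 2 changes was 0.98 ± 0.32 (0.99 without NC-A 1).

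PECAM1 was lower in DHN than in NC, at a mean of 3.13 ± 0.176 CPM (n = 3), with a log2 change of -0.54 ± 0.21 (edgeR adjusted p = 0.0356). The call was lost with DESeq2 (0.0654) and without DHN 1 (0.0661), DHN 2 (0.0697), DHN 3 (0.122), NC 2 (0.215) or NC 3 (0.0647), in a range of 0.0134 to 0.215 over 18 alternatives. With asparagine present, the change with 1,2-DHN was 0.43 ± 0.24 (edgeR adjusted p = 0.462; 0.45 and 0.548 without NC-A 1) and the groups overlapped. The means ran from NC through DHN and DHN-A (2.43 ± 0.414 CPM) to NC-A, at 100%, 69.1%, 53.6% and 38.9% of the NC mean; DHN-A and NC-A overlapped, and the other neighbours did not.

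PECAM1 is a defining endothelial gene, so the other endothelial markers were read beside it. Of 20 markers 12 were tested. Their summed level was 508 to 548 CPM in NC libraries, 454 to 467 in NC-A libraries, 377 to 398 in DHN libraries and 445 to 472 in DHN-A libraries, most of it from TIE1, an endothelial receptor kinase, and ENG, endoglin. Per length TIE1 was at 31.6 RPKM and ENG at 47.5, far above the 0.383 RPKM of PECAM1. Other endothelial genes were mixed. EGFL7 had 277 to 733 counts per library, FLT1 152 to 352, PTPRB 67 to 244 and ROBO4 66 to 250. The junction cadherin CDH5 had 1 to 10, VWF (von Willebrand factor) 14 to 61, and TEK, PLVAP, EMCN and CLDN5 at most 10. SOX17 had no count in any library, which allows up to 0.242 CPM in the smallest library (3 counts, counting error only). In NC-A against NC 2 of the 12 fell and 0 rose with edgeR (3 and 0 at an unadjusted p under 0.05; 2 and 0 with DESeq2 and with limma-voom), and in DHN-A against DHN 5 rose and 1 fell. Of all genes 10.9% fell in the former, and 20.9% rose and 20.8% fell in the latter. TIE1 and ENG fell in the former, by 0.15 ± 0.040 and 0.28 ± 0.043 (edgeR adjusted p = 0.00387 and 2.58e-06), and rose in the latter, by 0.34 ± 0.040 and 0.17 ± 0.043 (7.51e-10 and 0.000931). In DHN against NC 1 of the 12 rose and 4 fell with edgeR, where 19.7% and 19.0% of all genes did. The counts were 2 and 4 at an unadjusted p under 0.05, 0 and 3 with DESeq2, and 1 and 4 with limma-voom. Of 6 platelet markers GP9, PF4 and PPBP had at most 1 count, GP1BA 10 to 43, ITGA2B 6 to 42 and ITGB3, which other cells also carry, 1295 to 3825. Of 10 leukocyte markers 4 were tested; PTPRC, which marks nearly all leukocytes, had 2 to 11 counts and CSF1R 46 to 133. Of 10 fibroblast markers 8 were tested, led by COL1A1 at a mean of 1005 CPM, whereas DCN had at most 2 counts, LUM at most 5 and PDGFRA 2 to 12. With edgeR 5 of the 8 fell and 0 rose in NC-A against NC, 6 fell and 0 rose in DHN against NC, and 4 rose and 0 fell in DHN-A against DHN, the same counts as at an unadjusted p under 0.05 and with DESeq2 and limma-voom. Of all genes 10.9% fell in NC-A against NC, 19.0% fell in DHN against NC and 20.9% rose in DHN-A against DHN. Their summed level was 1705 to 1810 CPM in NC libraries, 1499 to 1521 in NC-A libraries, 961 to 1017 in DHN libraries and 1454 to 1518 in DHN-A libraries. Whether cells of another type take part in the level of PECAM1 was not tested.

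Among the other adhesion molecules of the immunoglobulin family, 26 of 32 were tested. In NC-A against NC 9 fell and 0 rose with edgeR (12 and 1 at an unadjusted p under 0.05; 8 and 0 with DESeq2, 9 and 0 with limma-voom), where 10.9% of all genes fell, and the median was -0.093. In DHN-A against DHN 11 rose and 4 fell (20.9% and 20.8% of all genes), with a median of 0.20. CADM3, CADM4 and JAM2, adhesion molecules of cell contacts, fell in NC-A against NC by 0.78 ± 0.23, 0.60 ± 0.17 and 0.60 ± 0.21 (edgeR adjusted p = 0.00997, 0.00989 and 0.0359) and were at 0.12 ± 0.21, 0.24 ± 0.16 and -0.20 ± 0.21 in DHN-A against DHN (0.669, 0.253 and 0.463). ICAM1, a leukocyte ligand, was at 0.046 ± 0.042 (edgeR adjusted p = 0.496) and rose by 0.79 ± 0.043 (3.28e-20).

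Of 24 signalling partners of PECAM1 22 were tested, with 3 higher and 4 lower in NC-A against NC (9.32% and 10.9% of all genes) and 6 higher and 6 lower in DHN-A against DHN (20.9% and 20.8%). INPP5D, the lipid phosphatase SHIP1 of inhibitory receptors, rose in both, from 4.69 ± 0.231 to 9.06 ± 0.0405 CPM and from 4.35 ± 0.352 to 8.55 ± 1.59 CPM (mean ± SD, n = 3; log2 0.95 ± 0.15 and 0.97 ± 0.15, edgeR adjusted p = 3.25e-06 and 3.54e-07). The kinase LYN, which phosphorylates such receptors, fell in both, by 0.40 ± 0.079 and 0.55 ± 0.074 (edgeR adjusted p = 0.000167 and 3.42e-08). The related kinase YES1 was at -0.064 ± 0.060 (edgeR adjusted p = 0.503) and fell by 0.40 ± 0.057 (1.04e-07), and the integrin subunit ITGB3 was at 0.014 ± 0.042 (0.859) and rose by 0.36 ± 0.042 (8.76e-10).

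PTPRG-AS1 was higher with asparagine alone, higher with 1,2-DHN alone, and no higher with both than with asparagine. The gene (ENSG00000241472) lies on chromosome 3 from 62260865 to 62369330 on the minus strand, with 10 annotated transcripts. Its level was 1.24, 1.64 and 1.61 CPM in NC 1, 2 and 3, from 20, 34 and 38 counts, and 3.18, 3.71 and 4.19 CPM in NC-A 1, 2 and 3. The groups did not overlap, and the log2 change was 1.29 ± 0.23 (2.45-fold; 1.39 without NC-A 1). DHN libraries were at 2.58, 2.05 and 2.42 CPM and DHN-A libraries at 2.88, 2.48 and 2.89 CPM. These overlapped, with a log2 change of 0.24 ± 0.21. The difference between the 2 changes was -1.05 ± 0.31 (-1.14 without NC-A 1).

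PTPRG-AS1 was higher in DHN than in NC, at a mean of 2.35 ± 0.271 CPM (SD, n = 3), 157% of the NC mean. The log2 change was 0.62 ± 0.24 (edgeR adjusted p = 0.0318), and every DHN library was above every NC library. This call was at the edge of the threshold. It was lost with DESeq2 (0.0595), with limma-voom (0.0588), with no filter on low counts (0.113), in a fit of the groups compared (0.0524), and without DHN 1 (0.0864), DHN 3 (0.0882), NC 1 (0.123) or NC 3 (0.0531), in a range of 0.0311 to 0.123 over 18 alternatives. In the presence of asparagine 1,2-DHN gave a log2 change of -0.43 ± 0.21 that was not called (edgeR adjusted p = 0.356; -0.53 and 0.314 without NC-A 1), although all 3 DHN-A libraries were below all 3 NC-A libraries. The means ran NC-A (3.69 ± 0.507 CPM), DHN-A (2.75 ± 0.231), DHN and NC, and of the neighbours in that order DHN-A and DHN overlapped.

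PTPRG-AS1 shares its locus with 2 genes on the other strand. In GENCODE release 29, 26.8% of its exon bases lie opposite exons of PTPRG. No source used here gives the strand setting of the counting, so reads from that stretch cannot be assigned to either gene with certainty; the deposited gene length of 8819 bases, against 4496 exon bases in release 29, also shows that the authors' gene model was another. PTPRG had another order of groups than its antisense gene. Its means were 10.7 ± 0.248 and 10.3 ± 0.882 CPM without 1,2-DHN (NC, then NC-A) and 7.53 ± 0.293 and 9.81 ± 1.13 CPM with it (DHN, then DHN-A; SD, n = 3). It fell by 0.51 ± 0.12 in DHN against NC, rose by 0.39 ± 0.12 in DHN-A against DHN, and was at -0.045 ± 0.11 in NC-A against NC (edgeR adjusted p = 0.000420, 0.00550 and 0.835).

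C3orf14 starts 26 bases from the RefSeq start of PTPRG-AS1 and runs the opposite way; 7 of the 10 annotated PTPRG-AS1 transcripts start within 400 bases of that point. No change of C3orf14 was detected. The means were 12.3 ± 1.23, 13.9 ± 2.26, 13.0 ± 0.120 and 13.5 ± 0.537 CPM in NC, NC-A, DHN and DHN-A (mean ± SD, n = 3), with log2 changes of 0.16 ± 0.11 in NC-A against NC and 0.063 ± 0.11 in DHN against NC (edgeR adjusted p = 0.311 and 0.693).

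Of 19 receptor tyrosine phosphatases, PTPRG among them, 15 were tested, and of 6 contactins, the ligands of PTPRG, none had enough counts to be tested. With asparagine alone 5 phosphatases fell and 0 rose with edgeR, where 10.9% of all genes fell (6 and 2 at an unadjusted p under 0.05; 5 and 0 with DESeq2 and with limma-voom). In DHN against NC 10 fell and 0 rose (10 and 0 in each of these settings; 19.0% of all genes fell), and in DHN-A against DHN 8 rose and 1 fell (20.9% and 20.8% of all genes). PTPRU and PTPRS fell in NC-A against NC by 0.52 ± 0.051 and 0.47 ± 0.043 (edgeR adjusted p = 5.57e-11 and 8.25e-12), and PTPRN by 0.46 ± 0.13 (0.0105). PTPRB, the endothelial member, was at -0.086 ± 0.12 (edgeR adjusted p = 0.686) and rose by 0.61 ± 0.13 in DHN-A against DHN (0.000103).

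Over the 4 genes, 3 were called in DHN against NC, 2 lower and 1 higher, where 38.7% of all tested genes were called (19.0% lower, 19.7% higher). The groups did not overlap downward for 22.4% of tested genes and upward for 23.7%. With 4 genes, picked partly on the NC libraries, and 2 of the 3 calls lost under several alternatives, that count is no result about the group. In DHN-A against NC-A 2.10% of all genes were called (0.805% higher, 1.29% lower) and 0 of the 4 were with edgeR, with 1 of 4 at an unadjusted p under 0.05 and 0 with limma-voom; DESeq2 gave no adjusted p for any of them. There the groups of 1 member, PTPRG-AS1, did not overlap, as for 9.32% of tested genes downward and 9.12% upward. In NC-A against NC, where 20.2% of genes were called, all 4 had groups that did not overlap, as did 17.2% of tested genes downward and 16.5% upward, and in DHN-A against DHN, where 41.7% were called, 3 did (25.5% and 25.8%); the genes were picked on these comparisons.

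In the 2 asparagine comparisons the share of neighbouring genes called, both directions together, was near that of all genes. Among 24 neighbours, the 3 nearest tested genes on each side (up to 3211 kb away, for C3orf67), 2 rose and 2 fell in NC-A against NC, with log2 changes between -1.13 and 0.35. In DHN-A against DHN 3 rose and 7 fell, between -0.80 and 0.47. Of all genes 20.2% and 41.7% were called in these comparisons, and in the latter 20.9% rose and 20.8% fell. Beside PRSS35, ME1, malic enzyme, 81.5 kb away, fell in both comparisons, by 0.40 ± 0.054 and 0.58 ± 0.051 (edgeR adjusted p = 1.88e-07 and 4.63e-13). Beside ZMAT1 the armadillo gene ARMCX2 was at -0.049 ± 0.085 and rose by 0.33 ± 0.081 (edgeR adjusted p = 0.743 and 0.000894). Beside PECAM1, MILR1, 35.3 kb away, was at 0.21 ± 0.21 and 0.25 ± 0.20 (edgeR adjusted p = 0.547 and 0.337), while ERN1, which senses unfolded proteins, was higher by 0.35 ± 0.078 and fell by 0.69 ± 0.069 (0.000754 and 1.70e-11). Inside PTPRG, RPL10AP6 fell by 1.13 ± 0.30 in NC-A against NC (edgeR adjusted p = 0.00585). It is a pseudogene of RPL10A, so its counts are uncertain. In DHN against NC 9 of the 24 neighbours rose and 3 fell, where 19.7% and 19.0% of all genes did.

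**Figure D3:**
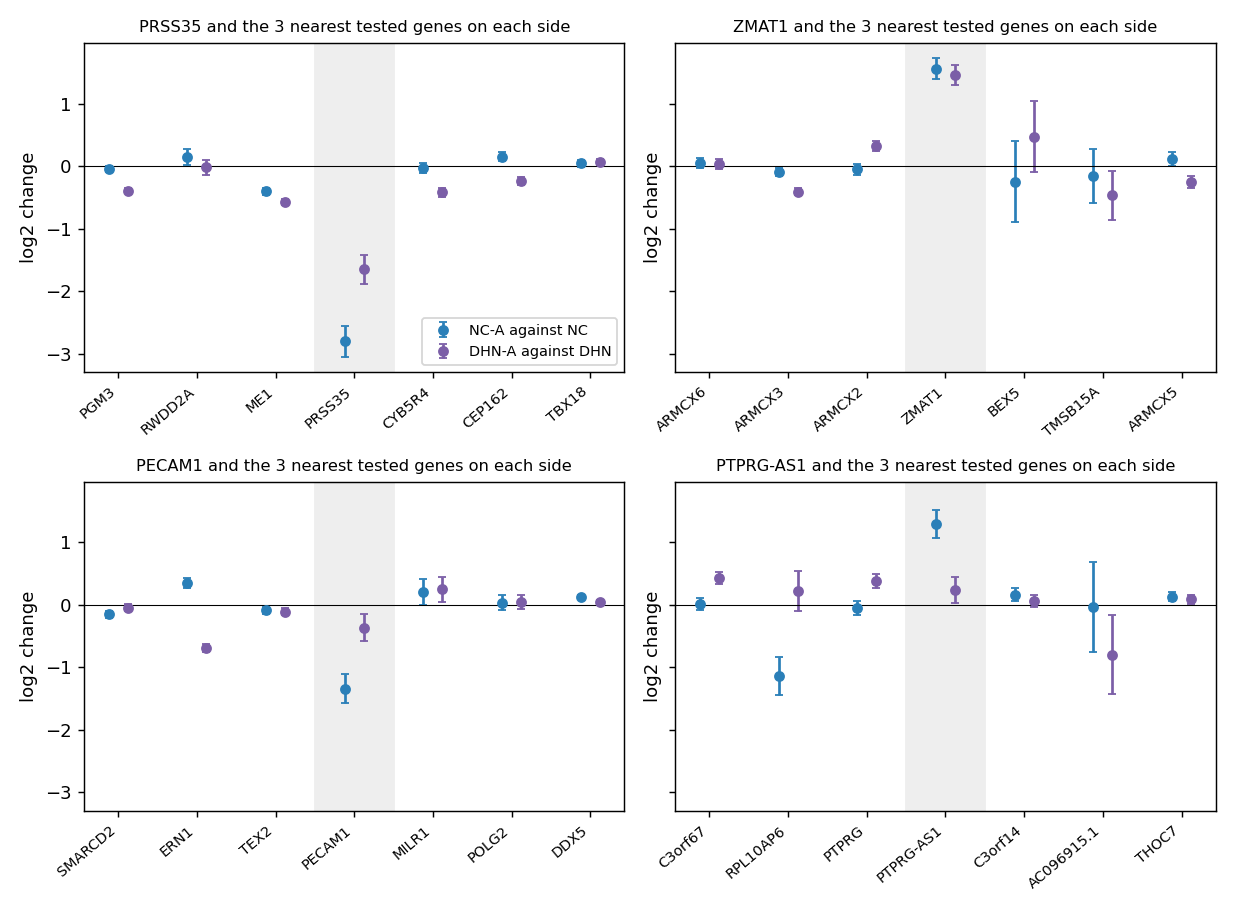
log2 change ± SE (vertical axes) of each gene, shaded, and its 3 nearest tested genes on either side in chromosome order, in NC-A against NC and in DHN-A against DHN. ZMAT1 at 1.56 and 1.46 stands above neighbours between -0.47 and 0.47, and PRSS35 at -2.81 lies below ME1 at -0.40.

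The genes with the most similar pattern were ranked by Pearson's r of log2 CPM over the 12 libraries, among tested genes averaging 50 counts or more; r is a description here, and the libraries fall into 4 groups. For ZMAT1 they were CIRBP, an RNA-binding protein (r = 0.987), GPT2, the mitochondrial alanine aminotransferase (0.983), CYFIP2, of the actin regulatory WAVE complex (0.980), SDSL, a serine dehydratase-like enzyme (0.978), and FLOT1, a membrane raft protein (0.978). Their log2 changes in NC-A against NC were 0.36 to 0.75, beside 1.56 for ZMAT1, which was picked on that comparison. For PRSS35 they were the protease inhibitor TFPI2 (0.970), SZRD1 (0.968), the long non-coding RNA UCA1 (0.963), RBPMS2 (0.961) and the growth factor FGF2 (0.961), with changes of -0.85 to -0.31. For PECAM1 they were TMEM104 (0.931), TP53I11 (0.913), IDH3G (0.908), PURG (0.901) and GSE1 (0.897). For PTPRG-AS1 they were RSL24D1, of ribosome assembly (0.954), the snoRNA host SNHG29 (0.952), the serine synthesis enzymes PSPH (0.934) and PSAT1 (0.924), and RPL10A (0.920). Without NC-A 1, 4 of the 5 genes for ZMAT1 were still among its closest 5, but 1 for PRSS35 and 2 each for PECAM1 and PTPRG-AS1.

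**Figure D4:**
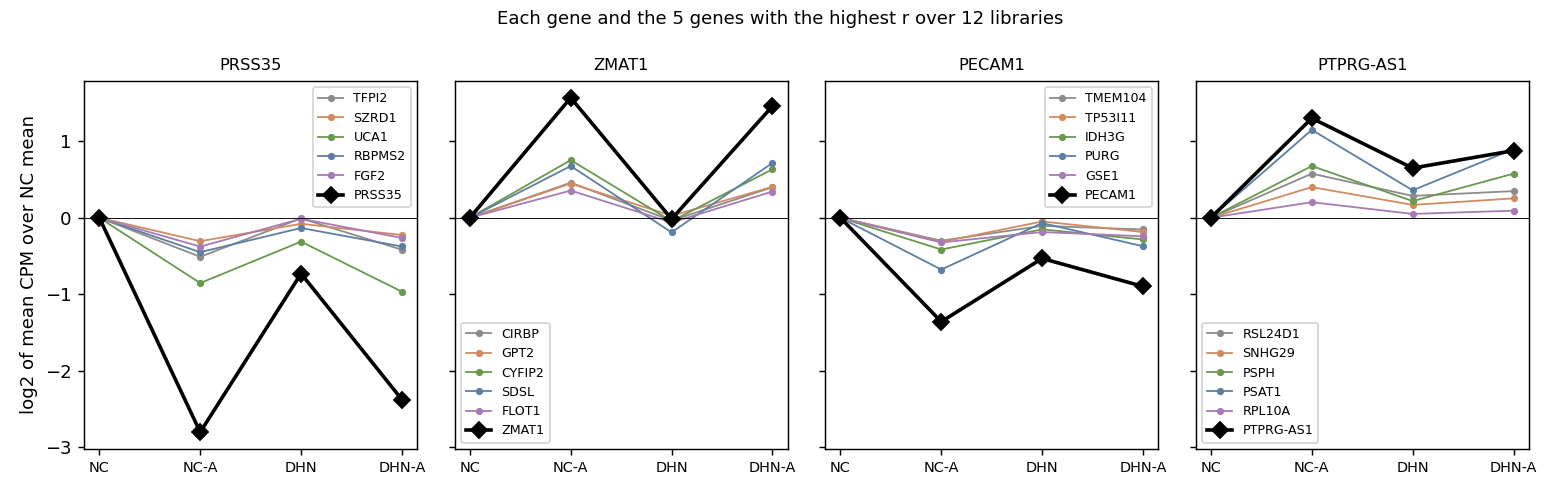
log2 of the group's mean CPM over the NC mean (vertical axis) for each gene (black) and its 5 most similar genes in the groups NC, NC-A, DHN and DHN-A; lines join groups for reading only. In NC-A against NC each of the 4 genes changed more than its 5 similar genes. The 4 genes were picked on that comparison, so nothing is read from this. PSAT1 had a fitted log2 change of 1.15 there beside 1.29 for PTPRG-AS1.

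The amino acid response, in which asparagine synthetase is a target, was read beside these genes because it moved with asparagine, and it moved with 1,2-DHN too. Of 34 listed genes 32 were tested: 24 rose and 2 fell in NC-A against NC (9.32% and 10.9% of all genes), with a median of 0.51, while 10 rose and 12 fell in DHN-A against DHN (20.9% and 20.8%), with a median of -0.033. In DHN against NC 24 rose and 3 fell (19.7% and 19.0%), with a median of 0.37. ALDH1L2, a mitochondrial folate enzyme, went from 22.7 ± 0.835 to 49.0 ± 1.68 CPM and from 23.5 ± 2.24 to 45.3 ± 1.17 CPM (mean ± SD, n = 3), with no detected difference between the 2 rises (log2 difference -0.16 ± 0.097, edgeR adjusted p = 0.243). ASNS and CHAC1 rose in NC-A against NC (1.34 ± 0.20 and 1.23 ± 0.11) and in DHN against NC (1.12 ± 0.20 and 1.67 ± 0.11), with edgeR adjusted p = 9.91e-07, 5.82e-12, 6.58e-06 and 5.04e-18. In DHN-A against DHN neither rose: ASNS was at -0.058 ± 0.17 and CHAC1, which was lower, at -0.42 ± 0.092 (edgeR adjusted p = 0.821 and 0.000222). PSAT1 had means of 101 ± 3.86 CPM in NC-A, 85.0 ± 4.48 in DHN-A, 58.5 ± 1.15 in DHN and 45.6 ± 0.604 in NC (SD, n = 3), the same order of groups as PTPRG-AS1. Since PSAT1 was ranked above among the genes most similar to PTPRG-AS1 in these libraries, the shared order is no separate observation.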

How the data were processed

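RNA from 12 libraries of SRA01/04 cells (4 groups of 3) was analysed from the table of raw read counts per gene symbol that the authors deposited, which also holds a gene length for each symbol (another unit, in bases). Alignment used Bowtie and hg38, per the submitters' processing notes; no source used here gives versions, the counting tool, its strand setting or the annotation. The library kit was stranded, per the labels' protocols. The members and the gene lists were chosen with earlier results of these data known. Genes passing edgeR's filterByExpr (17889 of 60641) were fitted with edgeR 4.0.16 (R 4.3.3): trimmed mean of M values factors, 1 mean per group, robust quasi-likelihood test on all 12 libraries, Benjamini-Hochberg adjustment over all tested genes, threshold 0.05. Standard errors are the log2 change over the root of the F statistic, an approximation. CPM used scaled library sizes, and log2 CPM a prior count of 2. No columns were left out (0 of other samples).

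On simulated counts for DHN against NC (17889 genes, 200 changed, 17069 tested) 87% of 1.5-fold and 95% of 2-fold changes were called, and unchanged genes made up 8.54% of the calls. The changed genes were drawn from all those averaging 50 counts or more. The members averaged 50.1 (PTPRG-AS1) to 101 (ZMAT1) counts, so these shares may be too high for them. Only 200 genes were changed, whereas 38.7% of tested genes were called in the real DHN against NC. The simulated shares therefore need not apply there. The 8.54% of unchanged genes among the calls is above the threshold of 0.05. Results were recomputed with DESeq2 1.42.0, limma-voom (limma 3.58.1), relative log expression scaling, no filter, a replicate block, a fit restricted to the compared groups, and every library left out in turn. Named genes are the members, PTPRG, the 5 most similar genes averaging 50 counts or more, the 3 nearest tested genes per side, and up to 4 called members of each list of relatives with the largest asparagine change; cell type markers were listed separately, and those printed were picked after their values were seen, as were the promoter motifs. RPKM was computed here from the deposited lengths. Gene positions are from GENCODE release 29 and promoters from RefSeq, both GRCh38.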

Additional observations from a re-analysis of the deposited data

Results flagged for a closer look

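The change with asparagine differed between cells given and not given 1,2-DHN in 29 of the 56 named genes other than the 4 members, which are neighbours and genes of the lists (interaction term, edgeR adjusted p under the threshold of 0.05). Of all 17889 tested genes 25.7% had such a call. The list genes were named for a large change with asparagine, so nothing is read from the difference between these shares. Values are the log2 change in DHN-A against DHN minus that in NC-A against NC. The difference was above 0 for HTRA1 (0.80), ICAM1 (0.75), PLAU (0.61), PLAT (0.70), PTPRS (0.55), PTPRU (0.59), ITGB3 (0.35), SERPING1 (1.00), PTPRB (0.70), CADM4 (0.84), C1R (0.54), ARMCX2 (0.38), SPINT2 (0.73), RPL10AP6 (1.36), C3orf67 (0.42), CADM3 (0.90), PTPRG (0.43). It was below 0 for SERPINH1 (-1.12), CHAC1 (-1.64), ERN1 (-1.04), PSAT1 (-0.61), ASNS (-1.40), PGM3 (-0.35), ZMAT2 (-0.41), YES1 (-0.34), CEP162 (-0.38), CYB5R4 (-0.39), ARMCX3 (-0.31), PARD6G-AS1 (-1.03). The adjusted p ran from 7.83e-19 for SERPINH1 to 0.0444 for PTPRG, and these values are given without an explanation.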

How the results depend on the processing

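The log2 changes of the 4 genes with asparagine and their interactions, values without a test, were recomputed under all alternatives run. None moved by more than the spread between replicates (the groups' SDs of log2 CPM, combined as the root of their summed squares). Leaving out 1 of 3 libraries can hardly move a value by that much, so for those alternatives this is no sign of stability. Some values moved by more than their SE. In NC-A against NC that of PRSS35 ran from -3.10 to -2.58 and that of PECAM1 from -1.63 to -1.10 with 1 library left out. The number of genes called in DHN-A against NC-A was 375, and 143 to 426 with 1 library left out (143 without DHN-A 2, 170 without NC-A 3, 226 without NC-A 2 and 230 without DHN-A 1). The counts of the other comparisons stayed within 1.5 times: 2773 to 3714 around 3612 in NC-A against NC, 6575 to 7835 around 7455 in DHN-A against DHN and 6126 to 7112 around 6919 in DHN against NC, with 1 library left out. In DHN against NC the call of PECAM1 (adjusted p = 0.0356) was lost with DESeq2 (0.0654) and ranged from 0.0223 to 0.215 with 1 library left out. That of PTPRG-AS1 (0.0318) was lost with DESeq2 (0.0595), limma-voom (0.0588), no filter (0.113) and only the groups compared (0.0524), and ranged from 0.0311 to 0.123 with 1 library left out. The cause was not tested. The uncalled change of ZMAT1 (adjusted p = 0.984) turned sign with limma-voom (0.993) and without DHN 1 (0.888), DHN 2 (0.984) or NC 3 (0.769), in a range of 0.752 to 0.991 with 1 library left out. No pairing of the libraries by replicate number was seen. Deviations from the group means correlated at -0.18 to 0.23 for equal and -0.27 to 0.29 for unequal numbers. With 3 libraries per group this cannot exclude a shared culture or batch. Adding a replicate block changed no call of the 4 members (edgeR adjusted p in DHN against NC: PECAM1 0.0431, PTPRG-AS1 0.0351, PRSS35 0.00173), with 334 genes called in DHN-A against NC-A. DESeq2 gave no adjusted p for the 4 genes in DHN-A against NC-A. Depth limits PRSS35 in NC-A, with 8 to 19 counts per library, and PTPRG-AS1 in NC, with 20 to 38.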

Other observations

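PTPRG-AS1 belongs to a class of genes whose symbols end in AS and a number, named for lying opposite another gene. Among 1369 other such symbols counted, 430 were tested. In NC-A against NC 57 of them rose and 2 fell (13.3% and 0.465%), where 9.32% of all tested genes rose and 10.9% fell, and the median log2 change was 0.22 against 0.0031 for all genes. In DHN-A against DHN 76 rose and 18 fell (17.7% and 4.19%, against 20.9% and 20.8% of all genes), with a median of 0.21. Without NC-A 1, a setting chosen after the data were seen, 42 of 459 rose in NC-A against NC and 0 fell with edgeR (91 and 8 at an unadjusted p under 0.05; no other tool was run in this setting), a share of 9.15% (where 7.17% of all genes rose and 8.93% fell), with a median of 0.20, and 77 rose and 19 fell in DHN-A against DHN (16.8% and 4.14%, where 20.8% and 21.5% of all genes did). The class was chosen after the data were seen and has no test of its own. No source used here gives the strand setting of the counting, so reads shared with a gene on the other strand cannot be assigned with certainty.

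SP2-AS1 rose by 1.15 ± 0.16 in NC-A against NC and 0.65 ± 0.15 in DHN-A against DHN (edgeR adjusted p = 4.43e-07 and 0.000467). STXBP5-AS1 rose by 0.83 ± 0.17 and 1.15 ± 0.17 (edgeR adjusted p = 0.000232 and 1.57e-07), and TMEM44-AS1 by 1.05 ± 0.19 and 0.51 ± 0.18 (6.44e-05 and 0.0218). PARD6G-AS1 went the other way in cells given 1,2-DHN, with a fall of 1.20 ± 0.22 (edgeR adjusted p = 1.33e-05), and was at -0.17 ± 0.25 in NC-A against NC (0.702).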
